A study of Saccharomyces cerevisiae with 76 samples.

Results

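The genes described here encode the general transcription factors of RNA polymerase II, the TAF subunits of TFIID and the subunits of Mediator in budding yeast, 56 of the 6002 nuclear protein-coding genes of the S288C reference. They were chosen by name and function, and not by their signal: 17 subunits of TFIIA, TFIIB, TFIIE, TFIIF and TFIIH, 14 TAFs and 25 Mediator subunits. A binding site of Abf1 was counted at a gene when the summit of its ChIP-seq peak, the base of highest signal, lay inside the open reading frame (ORF) or at most 1000 bp upstream of the start codon. By this rule 11 of the 948 summits in the list lay at 11 of the 56 genes.

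The series comprises 76 ChIP-seq samples, immunoprecipitations (IPs) and inputs of an anchor-away strain, in which rapamycin moves tagged Abf1 out of the nucleus, and of an untagged strain. The tagged strain is a MATalpha derivative of BY4742. It carries tor1-1 and fpr1del, which make growth insensitive to rapamycin, the anchor RPL13A-FKBP12-NAT on the ribosome, and Abf1-FRB-yEGFP-3V5-hphMX4 as its tagged Abf1, so that the cells before depletion bear all of these alleles too. The values below come from a single peak list of the tagged strain at t = 0, after 90 min in DMSO without rapamycin, called by the authors on 3 anti-V5 IPs together against 3 inputs. Because the authors pooled the replicates first, a site has a single value with no spread between cultures, and neither the samples taken after rapamycin (7.5 µM) nor the untagged strain were analysed here. Intervals on fold enrichments are 95% Poisson intervals of the fragment count and cover counting error only.

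Transcription by RNA polymerase II begins when TFIID, through the TATA-binding protein (TBP) and the TAFs, marks a promoter and TFIIA, TFIIB, TFIIF, TFIIE and TFIIH assemble there with the polymerase. Mediator connects activators bound upstream with the polymerase, through its tail, middle and head modules, and a separable kinase module restrains this contact. Abf1 is a general regulatory factor, an abundant and essential protein that binds a bipartite DNA motif in many promoters and keeps nucleosomes off the DNA around it.

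Sequences at the sites are given first, because most share the Abf1 consensus and differ around it. Each line holds 37 bases of the reference (S288C R64, which is sacCer3, from RefSeq) centred on the motif and read 5′ to 3′ on the strand of the motif, with the bases that match the 8 defined positions of the Abf1 consensus in capitals. The first set is the general factor genes with a summit, named with the gene on the other side of the site.
TFA1/MAE1, chrXI:385394-385430, minus strand: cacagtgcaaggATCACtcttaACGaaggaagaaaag
TFG1/TYS1, chrVII:867633-867669, minus strand: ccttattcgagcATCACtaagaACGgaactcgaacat
TFB1/SUM1, chrIV:1084917-1084953, minus strand: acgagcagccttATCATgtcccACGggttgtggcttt

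The TAF genes with a summit had the following sequences.
TAF4, chrXIII:275846-275882, minus strand: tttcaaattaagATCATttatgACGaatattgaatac
TAF5/KTR4, chrII:618671-618707, minus strand: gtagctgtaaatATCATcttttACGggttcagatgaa
TAF9/RNA1, chrXIII:742844-742880, minus strand: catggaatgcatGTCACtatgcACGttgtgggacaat
TAF11/TRM9, chrXIII:243995-244031, minus strand: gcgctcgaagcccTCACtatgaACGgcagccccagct
TAF12/MKC7, chrIV:746371-746407, minus strand: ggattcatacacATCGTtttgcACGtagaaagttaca

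The Mediator genes with a summit had these.
SRB2/NCP1, chrVIII:190270-190306, plus strand: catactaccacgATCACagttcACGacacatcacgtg
MED7/HRT1, chrXV:70164-70200, minus strand: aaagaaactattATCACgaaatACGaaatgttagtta
SOH1/SCS3, chrVII:271353-271389, minus strand: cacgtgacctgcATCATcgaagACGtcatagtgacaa

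Abf1 summits were therefore found beside genes of TFIIE, TFIIF, TFIIH, TFIID and Mediator, and they ranged from among the strongest of the genome to the lower end of the list. The 11 genes with a summit were 19.6% of the 56, against a background of 19.4% of all protein-coding genes (1167 of 6002), so that by this rule the share of these genes with a site was near the background. With summits in tRNA genes left out, the 11 genes kept theirs, and the background was 16.1% of all genes (965). The fold enrichment divides the fragments covering a summit by the background derived from the input, and summits below 2 were not listed. A summit of fold enrichment 4 or more stood at 6 of the 56 genes (10.7%), against 9.88% of all genes. The paper kept only peaks of at least 4 for its fits. It states that this also removes apparent weak binding over ORFs and tRNA genes, a known ChIP artefact. Over the 11 genes the highest fold enrichment had a median of 4.03 and ran from 2.09 to 37.1, a ratio of 17.7. Across all genes with a summit the median was 4.15 and the range 2.00 to 68.2. TFG1, TAF11 and TFA1 had values from 20.0 to 37.1, and the other 8 genes lay between 2 and 5, with nothing in between. In the whole list, 231 of the 948 summits were at 10 or more.

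**Figure D1:**
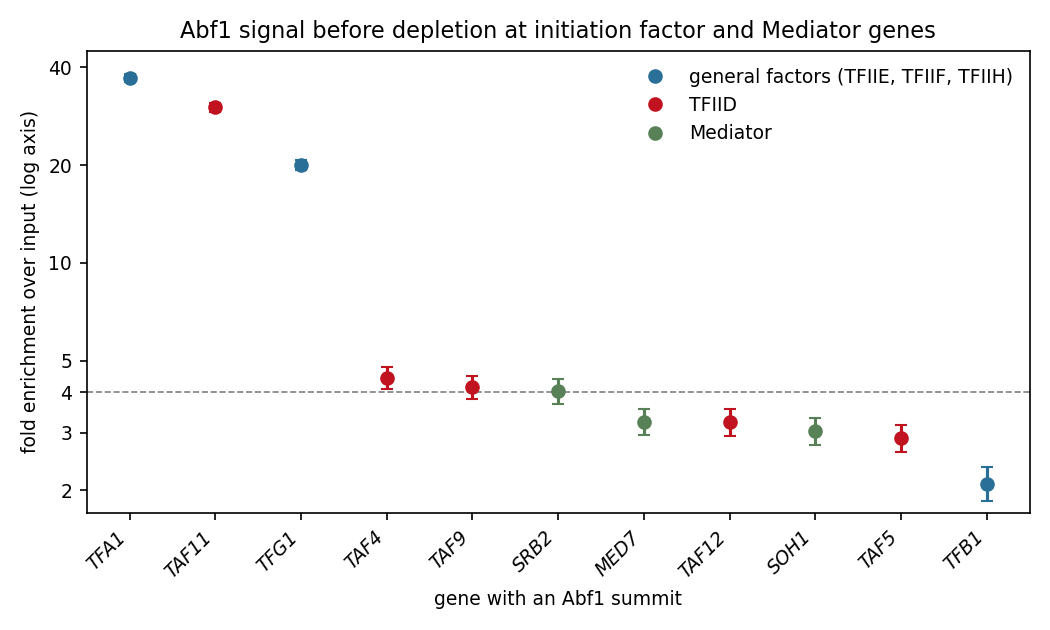
Fold enrichment over input (log axis) at the 11 summits of the general factor, TAF and Mediator genes, with bars for 95% Poisson intervals of the pooled fragment count. TFA1 (37.1), TAF11 (30.1) and TFG1 (20.0) stand above the other 8, which lie between 2.09 (TFB1) and 4.43 (TAF4), on either side of the dashed line at 4.

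Among the general factors, 3 of 17 genes (17.6%, against 19.4% of all genes) had a summit, 1 each in TFIIE, TFIIF and the core of TFIIH. TFA1 (YKL028W) encodes the large subunit of TFIIE, the factor that brings TFIIH to the promoter and stimulates it. Its summit, at chromosome XI position 385421 and 337 bp upstream of the start codon, had a fold enrichment of 37.1 (36.1 to 38.2), from 5068 fragments over a background of 135.6. It ranked 31 of 948 in the list and was the strongest site at the genes described here. The same summit lay 696 bp upstream of MAE1, which encodes the mitochondrial malic enzyme and is transcribed away from TFA1 across a gap of 1032 bp. The peak interval, from 384988 to 386014, held a pair of further exact consensus matches on either side of the summit, both printed here because no summit was listed within 100 bp of them.
TFA1, 489 bp upstream of the start codon, chrXI:385251-385287, plus strand: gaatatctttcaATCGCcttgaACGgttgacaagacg
TFA1, 133 bp upstream of the start codon, chrXI:385607-385643, minus strand: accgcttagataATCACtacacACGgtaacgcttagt

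TFG1 (YGR186W) encodes the largest subunit of TFIIF, which accompanies the polymerase into the initiation complex. Its summit, on chromosome VII at 867658 and 116 bp upstream of the start codon, had a fold enrichment of 20.0 (19.3 to 20.7), with 3006 fragments over 149.6 and rank 135. The promoter is short: a gap of 253 bp separates TFG1 from TYS1, the gene of tyrosyl-tRNA synthetase, and the summit lay 138 bp upstream of TYS1. TFB1 (YDR311W) encodes a subunit of core TFIIH, the part of the factor that opens promoter DNA and also serves in nucleotide excision repair. Here the summit, at 1084923 on chromosome IV and 142 bp upstream, had a fold enrichment of 2.09 (1.86 to 2.35), close to the authors' threshold of 2. It rested on 281 fragments over 133.8, ranked 911 and lay 607 bp upstream of the divergent gene SUM1, which encodes a repressor of middle sporulation genes. The 3 intervals did not overlap, with TFA1 at 17.7 times and TFG1 at 9.55 times the value of TFB1.

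No summit was listed at the other 14 general factor genes. These were SUA7, the only TFIIB gene, TOA1 and TOA2 of TFIIA, TFA2 and TFG2, the partners of TFA1 and TFG1, and in TFIIH the core genes RAD3, SSL1, SSL2, TFB2, TFB4 and TFB5 and all 3 kinase genes, KIN28, CCL1 and TFB3. Each pair of TFIIE and TFIIF subunits therefore had a strong site at the gene of the larger subunit and no listed site at the other. A gene without a listed summit may still hold signal below the authors' thresholds, a fold enrichment of 2 and a q-value of 0.001, which the list does not show.

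TFIID had the largest number of genes with a summit, 5 of 14 (35.7%, against 19.4% of all genes). Of these, 3 were at a fold enrichment of 4 or more (21.4% of the 14, against 9.88% of all genes). These shares rest on few genes, and their difference from the background was not tested. TAF11 (YML015C), which pairs through its histone fold with TAF13, had the highest value, 30.1 (29.2 to 31.0), from 4273 fragments over 141, and rank 57. That summit, at 244018 on chromosome XIII, lay 989 bp upstream of the TAF11 start codon and inside the ORF of TRM9, a tRNA methyltransferase gene. It was nearest to UBX2, a gene of endoplasmic-reticulum-associated degradation, whose start codon was 131 bp away, so that the site counts for TAF11 only through the 1000 bp rule.

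TAF4 (YMR005W) encodes the histone-fold partner of TAF12. Its summit, 173 bp upstream and at 275872 on chromosome XIII, had a fold enrichment of 4.43 (4.11 to 4.78), from 673 fragments over 151. This was the only one of the 11 sites that fell at no other gene by the rule, in a gap of 492 bp downstream of MVP1, a gene on the same strand. TAF9 (YMR236W), a histone-fold partner of TAF6, had 4.15 (3.82 to 4.50), from 578 fragments over 138.7, with the summit 103 bp upstream at 742868 on the same chromosome. It shares a gap of 235 bp with RNA1, which encodes the GTPase-activating protein of the Ran homologue Gsp1 and whose start codon was 133 bp from the summit, and BCH1, an exomer gene, lay 881 bp away. The intervals of TAF4 and TAF9 overlapped, and their ranks were 389 and 414.

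TAF12 (YDR145W) had a fold enrichment of 3.23 (2.94 to 3.55), from 444 fragments over 136.7, with rank 533. Its summit, at 746374 on chromosome IV, was 364 bp upstream of TAF12 and nearer, at 273 bp, to the divergent gene MKC7, which encodes a GPI-anchored aspartyl protease. TAF5 (YBR198C) encodes a WD40-repeat scaffold subunit. It had 2.89 (2.63 to 3.18), from 434 fragments over 149.4, rank 637, at chromosome II position 618695, 172 bp upstream of TAF5 and 214 bp from KTR4, a mannosyltransferase gene. TAF12 and TAF5 overlapped in their intervals, and both lay below TAF9.

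The 5 TAFs that are also subunits of the coactivator SAGA are TAF5, TAF6, TAF9, TAF10 and TAF12. Of these, 3 had a summit (60%, against 19.4% of all genes), with fold enrichments of 2.89, 4.15 and 3.23. That grouping was made after the values were seen. The 9 TAF genes with no listed summit were TAF1, a scaffold subunit of TFIID, and TAF2, TAF3, TAF6, TAF7, TAF8, TAF10, TAF13 and TAF14, the last of which TFIIF also contains. The histone-fold pairs named above were each named at a gene with a summit, and pairs among the other TAFs are not covered. Of the pairs named, TAF4 and TAF12 both had a summit. TAF9 and TAF11 had one and their partners TAF6 and TAF13 did not.

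Mediator genes had a summit at 3 of 25 (12%, against 19.4% of all genes), a lower share than in TFIID or the general factors, and none was above 4.03. The difference in share was not tested. SRB2 (YHR041C), which encodes the head subunit Med20, had a fold enrichment of 4.03 (3.69 to 4.40), from 506 fragments over 124.7, the lowest background among the 11 sites. Its summit, at 190264 on chromosome VIII, was 400 bp upstream of SRB2 and nearer, at 279 bp, to NCP1, the gene of NADPH-cytochrome P450 reductase. MED7 (YOL135C), a middle-module subunit that forms a long hinge with the product of SRB7, had 3.25 (2.96 to 3.56), from 454 fragments over 139.2. That site, at 70192 on chromosome XV, sat near the centre of a 280 bp gap, 148 bp from MED7 and 133 bp from HRT1, which encodes the RING subunit of SCF ubiquitin ligases.

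SOH1 (YGL127C) encodes Med31, a small and widely conserved middle subunit. Its value was 3.04 (2.75 to 3.34), from 412 fragments over 135, at 271394 on chromosome VII. The summit lay 619 bp upstream of SOH1 and inside the ORF of the divergent gene SCS3, which serves lipid metabolism at the endoplasmic reticulum. The same peak interval held a stronger summit at 272074 with a fold enrichment of 24.7 from 3358 fragments, which was 1299 bp from SOH1 and by the rule at SCS3 and MET13. The intervals of MED7 and SOH1 overlapped, and that of SRB2 lay above both.

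The 22 Mediator genes without a listed summit covered every module. They were SRB4, SRB5, SRB6, MED6, MED8 and MED11 of the head and MED1, MED4, CSE2, NUT2, ROX3 and SRB7, listed here with the middle. RGR1, the scaffold subunit that joins the modules, all 5 tail genes (MED2, PGD1, NUT1, GAL11 and SIN4) and all 4 kinase-module genes (SRB8, SSN2, SSN3 and SSN8) had none either. The tail is the main target of activators, and its gene GAL11 came closest to having a site. A summit with a fold enrichment of 22.8 stood 1031 bp upstream of GAL11, just outside the 1000 bp limit, in a divergent gap of 1303 bp and by the rule at SPE2, the gene of S-adenosylmethionine decarboxylase. TAF11, at 989 bp, was the gene just inside that limit.

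**Figure D2:**
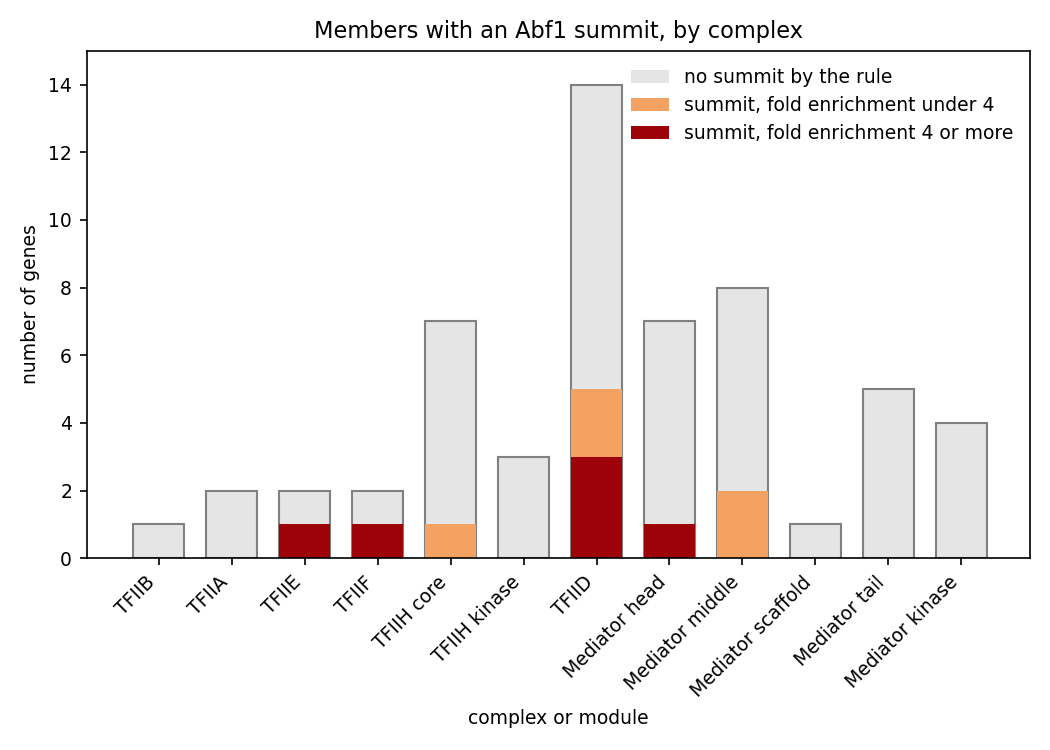
Number of genes in each complex or module (bar height), divided into genes with an Abf1 summit of fold enrichment 4 or more (red), with one under 4 (orange) and with none (grey). TFIID had a summit at 5 of 14 genes, the general factors at 3 of 17 and Mediator at 3 of 25, against 19.4% of all genes.

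Over the 45 genes without a summit, the nearest summit was between 1031 bp (GAL11) and 41190 bp (SRB6) from the start codon, with a median of 5726 bp. It was more than 10000 bp away for 13 of them. SRB5, a head subunit gene, had its nearest summit at 1562 bp with a fold enrichment of 25.7, by the rule at VOA1.

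Most of the 11 sites lay outside ORFs. None was inside the ORF of the gene itself, 9 were outside any ORF and 2, those of TAF11 and SOH1, were inside a neighbouring ORF. None overlapped a tRNA gene, where 231 of the 948 summits of the list fell. The distance to the start codon ran from 103 bp (TAF9) to 989 bp (TAF11) with a median of 173 bp. Over 1058 genes with an upstream summit the median was 333 bp, with summits in tRNA genes not left out of that set. At 9 of the 11 genes the summit was within 400 bp. It was nearest to the start codon of the gene itself at 7, and at TAF11, TAF12, SRB2 and MED7 another gene was nearer.

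**Figure D3:**
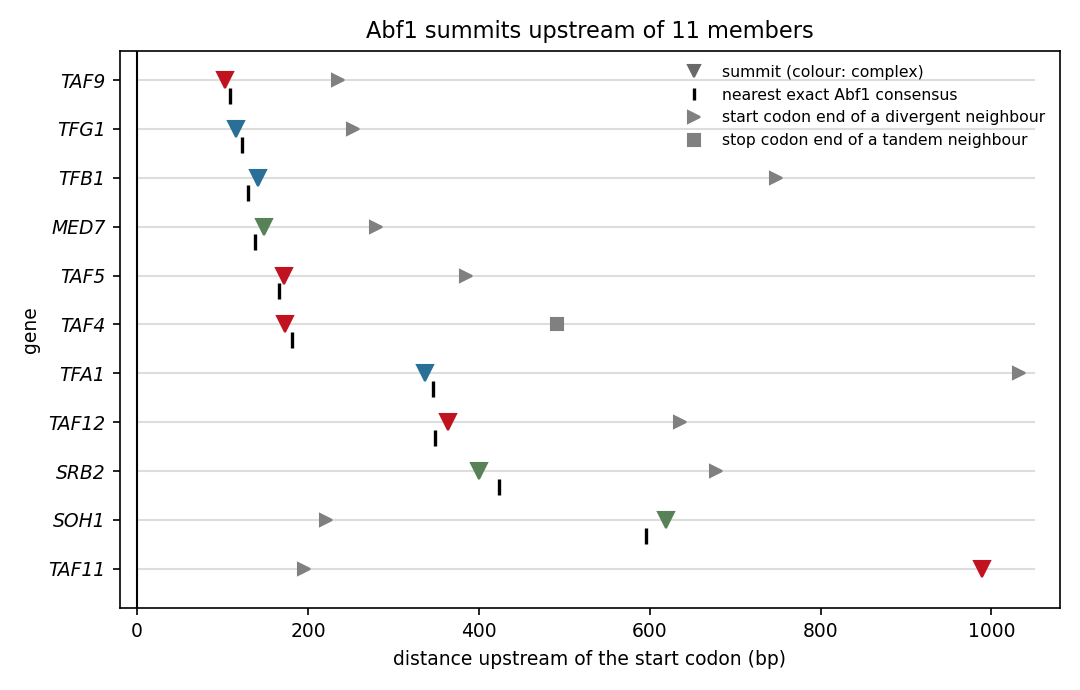
Map of the upstream regions of the 11 genes, with the start codon at 0 bp on the horizontal axis triangles for the Abf1 summit (blue for general factors, red for TFIID, green for Mediator), bars for the nearest exact consensus and grey symbols for the near end of the upstream neighbour. Summits lie between 103 bp (TAF9) and 989 bp (TAF11) upstream, and a consensus lies beside each apart from TAF11.

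Shared promoters were common among these genes. Of the 56, 38 (67.9%) faced a gene on the other strand with a divergent gap between them, against 52.0% of all genes, and the median divergent gap was 318 bp against 508 bp. A summit was listed at 10 of the 38 divergent genes (26.3%), against a background of 22.9% of divergent genes, and at 1 of the 18 tandem genes (5.56%, TAF4), against 15.6%. A single summit can count for more than 1 gene, and 10 of the 11 summits were at another gene by the rule as well. The share of all summits that count for more than 1 gene is not given here, so this count has no background. Those of TAF11 and SOH1 lay inside the ORF of the divergent neighbour and not in the gap between the genes. The other genes are 12 in number and serve carbon metabolism, tRNA charging and modification, protein sorting, proteolysis and lipid metabolism among others.

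The Abf1 consensus, as an exact match on either strand within 100 bp of the summit, was present at 10 of the 11 sites (90.9%), against a background of 58.9% of all 948 summits. That background includes the 231 summits in tRNA genes, where none of the 11 lay. The share over the summits outside tRNA genes was not computed, so the contrast is not one between like sets. In windows of the same length centred 500 bp upstream of each start codon, whether or not a summit was near, 4.37% of genes held a match. TAF11 is the exception to the full consensus: its closest match, 5 bp from the summit, departed at 1 of the 8 defined positions, the outermost on the left, printed in lower case. Scored against a matrix built from sites of the list, where 1 is the highest possible score, the 11 matches lay between 0.896 (SOH1) and 0.963 (TAF5), and TAF11 had 0.919. The order of the matrix scores did not follow that of the signal, since TAF5, with a fold enrichment of 2.89, scored above TFA1, with 37.1 and a score of 0.950. At the 10 sites with the consensus, its midpoint was 6 to 24 bp from the summit (median 9.5 bp, against 10 bp for all such summits), and it read opposite to the gene at 7 and with it at 3.

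The base 8 bp upstream of the motif midpoint (-8), which a single base separates from the motif, differed among the 10 sites with an exact match. It was G or C at TFA1, TFG1, SRB2 and SOH1, with fold enrichments of 37.1, 20.0, 4.03 and 3.04, and A or T at TFB1, TAF4, TAF5, TAF9, TAF12 and MED7, with values from 2.09 to 4.43. At TAF11, whose match is not exact and whose fold enrichment was 30.1, it was C. All sites with A or T at -8 were therefore below 5, and those with G or C were on both sides. In the whole list, the 207 summits with a single consensus and G or C at -8 had a median of 14.1 (quartiles 6.20 and 26.1), and the 292 with A or T a median of 4.22 (2.84 and 9.17). SRB2 and SOH1 thus lay below the lower quartile of the class of their own -8 base. These values are a description over sites of a single pooled list. The paper, citing earlier work, states that Abf1 is cross-linked efficiently only where this base is G or C. It left peaks with A or T there out of its fits, and describes low signals at some of them as likely rebinding during the ChIP procedure. The fold enrichments of the base classes are therefore not a like measure of binding. The first base of the spacer between the blocks of capitals (-1) was T at 5 of the 10 sites with an exact match, TFA1, TFG1, TAF4, TAF9 and TAF12, and at TAF11 as well.

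**Figure D4:**
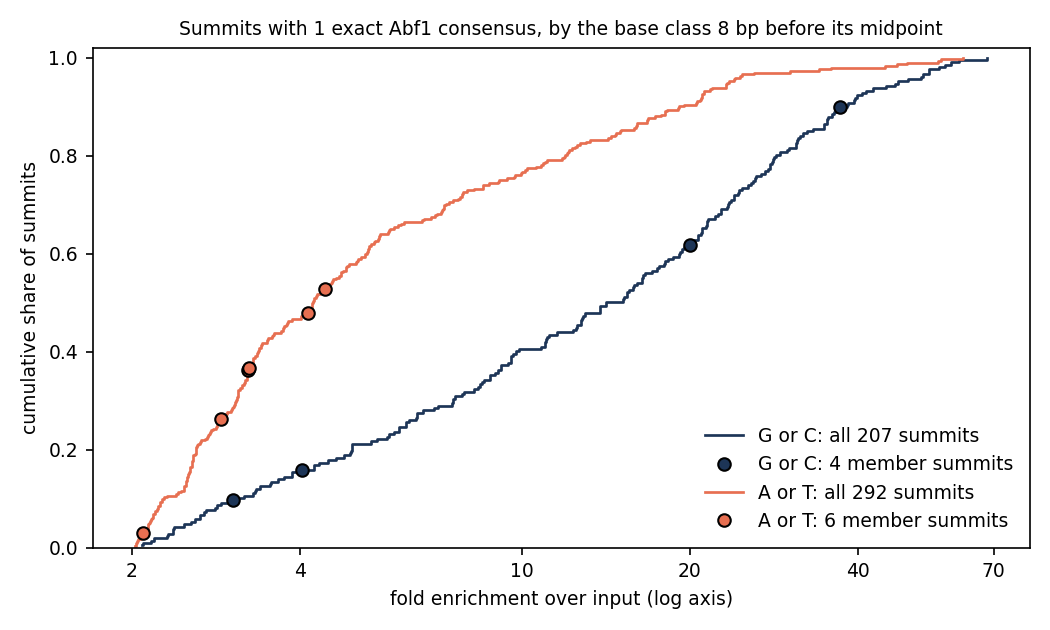
Cumulative share of summits against fold enrichment (log axis) over all summits with a single exact consensus, split by the base at -8, with circles for the 10 sites of the general factor, TAF and Mediator genes. The class with G or C (207 summits) has a median of 14.1 and that with A or T (292 summits) one of 4.22, while TFA1 and TFG1 lie above the first median, SRB2 and SOH1 below it.

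Some of these genes held the consensus without a listed summit. Over the 1000 bp upstream, 16 of the 56 genes had at least 1 exact match (28.6%), against 24.4% of all genes. Of 18 matches, 10 had a summit within 100 bp (55.6%), against 48.8% of the matches of all genes, each counted at every gene it lies upstream of. The 8 others were the pair at TFA1 and 1 match each at TOA1, SSL2, RAD3, TAF8, TAF14 and MED2. Those 6 genes had no summit at all, and their sequences are printed for comparison with the sites with a summit above.
TOA1, chrXV:712675-712711, plus strand: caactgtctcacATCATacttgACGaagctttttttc
SSL2, chrIX:83152-83188, minus strand: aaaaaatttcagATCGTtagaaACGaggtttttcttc
RAD3, chrV:526829-526865, plus strand: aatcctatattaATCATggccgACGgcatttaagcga
TAF8, chrXIII:43724-43760, minus strand: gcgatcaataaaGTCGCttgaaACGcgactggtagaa
TAF14, chrXVI:305120-305156, plus strand: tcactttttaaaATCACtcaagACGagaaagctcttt
MED2, chrIV:442825-442861, plus strand: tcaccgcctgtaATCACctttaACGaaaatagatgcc

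TOA1 encodes the large subunit of TFIIA, SSL2 and RAD3 the helicases of TFIIH, TAF8 and TAF14 subunits of TFIID, and MED2 a tail subunit of Mediator. Their matches lay 129 bp (SSL2) to 534 bp (MED2) upstream, a range that overlaps that of the sites with a summit. The nearest summit was 2464 bp (TOA1) to 14524 bp (RAD3) from the match. The matrix scores ran from 0.861 (TAF8) to 0.945 (MED2), and those of TOA1, SSL2, TAF14 and MED2 lay within the range of the sites with a summit. All 6 had A or T at -8, where cross-linking is inefficient by the paper's account, so that a missing summit does not show a lack of binding. Over the matches with and without a summit together, with those inside ORFs left out, 3 of 4 with G or C at -8 had a summit and 6 of 13 with A or T. Over all genes, with each match counted once, the shares were 81.9% (186 of 227) and 44.4% (310 of 698).

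**Figure D5:**
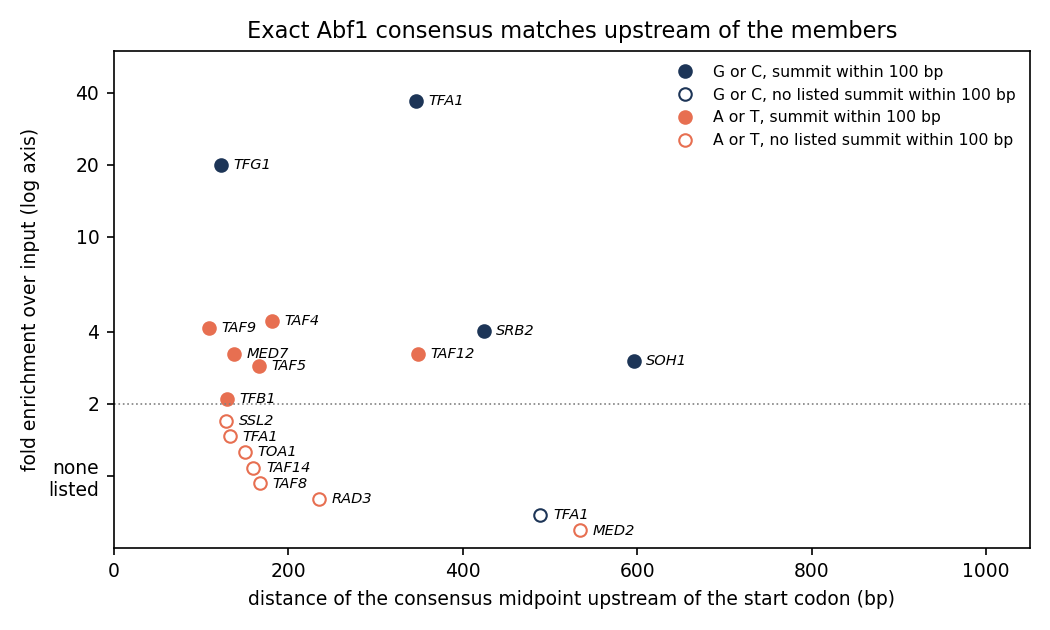
Exact Abf1 consensus matches in the 1000 bp upstream of the 56 genes, by distance from the start codon (bp) and by the fold enrichment of the summit within 100 bp (log axis), coloured by the base at -8, with open symbols, spread below 2 for legibility, where no summit was listed. Of 18 matches 10 have a summit, and 7 of the 8 open symbols have A or T at -8.

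Around the initiation machinery itself, the list of related genes comprised 22 genes, those of SAGA subunits and a TBP group. Beside TBP and its cofactors, the TBP group also held DST1 and TFB6, which are not TBP cofactors. A summit stood at 7 of the 22 (31.8%, against 19.4% of all genes), 3 of 8 in the TBP group and 4 of 14 in SAGA. Of the 22, 4 were at a fold enrichment of 4 or more (18.2%, against 9.88% of all genes). The list was drawn up with earlier results of these data known, and its differences from the background were not tested. The highest 3 were BDF1, a bromodomain protein associated with TFIID, with 20.0 inside its own ORF, GCN5, the acetyltransferase of SAGA, with 18.6, and SPT8, a TBP-binding SAGA subunit, with 18.4. SPT15, the gene of TBP itself, had none. These values lay near that of TFG1, below TFA1 and TAF11, and above the other 8 sites of the general factor, TAF and Mediator genes.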

How the data were processed

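Per the labels and methods, the authors immunoprecipitated Abf1 with anti-V5 after 2% formaldehyde for 5 min, mapped the read pairs with HISAT2 2.0.5 to sacCer3, and used MACS2 2.1.1.20160309 on the 3 IPs at t = 0 together, against 3 inputs, with thresholds of 2 in fold enrichment and 0.001 in q-value. The submitters' processing notes also name bedtools 2.27. The deposited list holds the fold enrichment (a ratio), the −log10 p-value, the −log10 q-value and a score per summit. The score was not used further. Pooling leaves no spread between replicates, so no test between groups was made.

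Fragments and background were solved from fold enrichment and −log10 p-value. They gave 258 to 10164 fragments per summit (median 505.5), with 941 of 948 within 0.01 of a whole number. Intervals are exact 95% Poisson intervals of the fragments and cover counting error only.

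Genes were the protein-coding genes of S288C R64 from RefSeq, with the start codon as reference point. The exact Abf1 consensus was searched on both strands. The matrix came from 397 sites of the list (15 positions, pseudocount 0.8). Every member is accounted for: those with a summit are named with values, those without by complex, with distances for the nearest and farthest, and 3 related genes by the highest fold enrichment. Members were listed by name and function, and their signal was not a criterion. Earlier results of these data were nevertheless known when members, lists and comparisons were chosen. Functions were tested on simulated data. Scripts ran on matplotlib 3.10.9, scipy 1.17.1, pandas 2.3.3, numpy 2.4.6 and Python 3.11.15. Alternatives covered the upstream window, the assignment to genes, the fold enrichment and q-value lines and the motif search.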

Additional observations from a re-analysis of the deposited data

How the results depend on the processing

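Of 52 combinations of a result and an alternative, 45 left the value within the limits set for it, 7 moved it and none reversed it. With an upstream window of 250 bp in place of 1000 bp, 6 genes kept a summit (10.7%), and SOH1, SRB2, TAF11, TAF12 and TFA1 lost theirs. Of all genes, 544 had one (9.06%) in place of 1167. A fold enrichment of 4 or more was left at 3 of the 6 genes, where the wider window gave 6, and no share of all genes is given for that count. With each summit given to the nearest start codon, 7 genes had a summit (12.5%, against 14.2% of all genes), without MED7, SRB2, TAF11 and TAF12. A line at a fold enrichment of 5 or of 10 left 3 genes, TFA1, TAF11 and TFG1, in place of 6. The share of all genes at these lines was not computed. Counting any overlap of the peak interval added GAL11 and SRB8 (23.2% of the genes, against 24.2% of all genes). It gave a median highest fold enrichment of 4.43 in place of 4.03.

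No paired analysis was possible because the peaks were called on pooled replicates, and for the same reason no replicate was left out in turn. Depth limits the weak sites most: TFB1 rests on 281 fragments, and signal under the fold enrichment threshold of 2 was not listed.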

Other observations

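The 500 bp upstream of the genes were also searched, on both strands, for the letters of 2 other promoter elements, as a description of sequence and not of binding. TTACCCG, the core of the motif of the general regulatory factor Reb1, occurred upstream of 10 of the 56 genes (17.9%), against 10.1% of all genes: TOA2, TFA2, CCL1, TAF2, TAF3, TAF5, TAF8, TAF12, MED2 and NUT1. Of these, 8 had no Abf1 summit, and TAF5 and TAF12 had both. The letters were thus about as frequent among the 11 genes with an Abf1 summit (18.2%) as among the 45 without (17.8%). TATAAA, the commonest form of the TATA box, occurred upstream of 29 of the 56 genes (51.8%), against 60.5% of all genes.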
